A study of Mus musculus with 5 samples.

Results

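The respiratory chain of the inner mitochondrial membrane is built from subunits encoded in the nucleus and in mitochondrial DNA. Its nuclear-encoded genes were taken here as every row of the deposited mouse gene table whose symbol begins with Nduf (complex I), Uqcr (complex III), Cox4 to Cox8 (complex IV) or Atp5 (complex V), or is Sdha, Sdhb, Sdhc or Sdhd (complex II). These rules found 92 of 24419 rows, with 45 in complex I, 4 in complex II, 8 in complex III, 18 in complex IV and 17 in complex V. The rule itself reads symbols and no measured value, and it was set with earlier results of these data known. RNA was from bone marrow-derived macrophages (BMMs) of C57BL/6 mice (C57BL6/J in the series' design), which are adherent cells grown from marrow with M-CSF, at 50 ng/ml for 5 days. All 5 samples had been activated with 100 ng/ml LPS, and then received either PBS (n = 2) or 100 ng/ml recombinant semaphorin 3G (Sema3G, n = 3) for 18 h. Sema3G is a secreted guidance protein that binds neuropilin-2 together with plexins, and the comparison asked how it alters gene expression in activated macrophages. The labels call the 2 PBS samples untreated in their titles and PBS-treated in their treatment field. There was no sample without LPS, and nothing in the labels says whether samples came from separate mice or cultures, so p-values measure only the spread between these samples, which may be technical.

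Electrons enter the chain at complex I (NADH:ubiquinone oxidoreductase) or complex II (succinate dehydrogenase, also an enzyme of the tricarboxylic acid cycle), pass through ubiquinone to complex III and through cytochrome c to complex IV (cytochrome c oxidase), and the proton gradient so formed drives complex V (ATP synthase). Macrophages activated by LPS are known to lean on glycolysis and to use succinate oxidation at complex II in making reactive oxygen species. Most members are small subunits around catalytic cores, and a few rows of the Nduf group are assembly factors that help to build complex I and are absent from the finished enzyme.

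Each RNA molecule was counted once, by a unique molecular identifier (UMI) on a tag near its 3′ end, so levels in CPM, counts scaled to a fixed library total, are compared between genes without division by length. The libraries held 1798469 to 2215855 UMIs, of which 65.9% to 77.6% lay on listed genes, and 3 UMIs were worth 1.35 to 1.67 CPM. The 8 macrophage markers examined each had UMIs in at least 4 of the 5 libraries, with summed levels of 9761 and 12570 CPM in PBS and 8860 to 9518 CPM in Sema3G, and of these Csf1r and Lyz2 were the highest. The 6 lymphoid markers had no UMI in any library, the dendritic and the mast cell and basophil markers had 1 UMI each in all, and the neutrophil and stromal markers summed to at most 2.68 and 18.7 CPM in any library. Rn45s, the ribosomal RNA precursor, moved with the groups: it took 1.01% and 3.19% of all UMIs in PBS and 6.31%, 7.40% and 7.88% in Sema3G, while the share on listed genes was 77.6% and 75.6% in PBS and 71.3%, 67.1% and 65.9% in Sema3G. Both enter every CPM value below, and their part in the results was not tested beyond the rescaled values given with them.

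**Figure D1:**
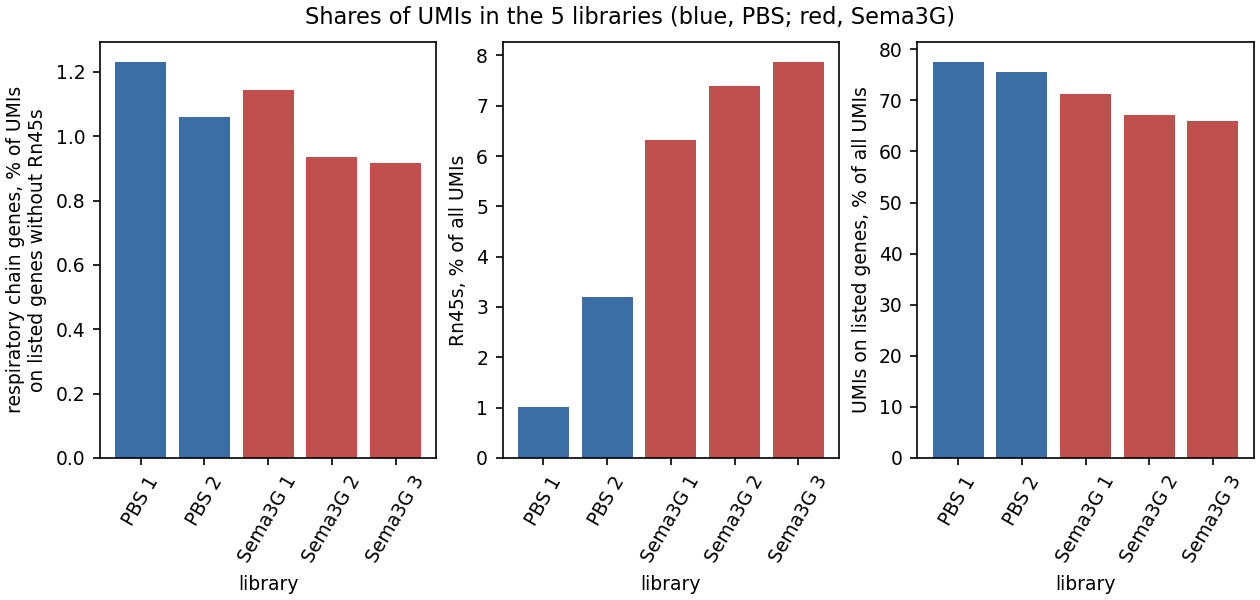
Bars give, for each of the 5 libraries, the share of UMIs on respiratory chain genes among listed genes other than Rn45s, the share of all UMIs on Rn45s, and the share of all UMIs on listed genes, each in percent. Rn45s runs from 1.01% in PBS 1 to 7.88% in Sema3G 3, and the respiratory chain share of Sema3G 1 (1.14%) lies between those of the PBS libraries.

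To show the DNA that the members' transcription starts from, 4 upstream stretches are printed: those of Uqcrc1 and Cox5b, the 2 members past the adjusted p of 0.05, and, chosen after the motif search, those of Cox6a1 and Ndufa6, which hold matches to the NRF1 motif. NRF1 (nuclear respiratory factor 1), ETS-family factors such as the GABP complex, and YY1 are known regulators of many respiratory chain genes. Sequences are from RefSeq on GRCm38.p6, the build that the labels name as mm10, and run 5′ to 3′ on the gene's strand. Each is the longest exon-free stretch within the 250 bases before the start, and capitals mark NRF1 matches on either strand.
Uqcrc1, chr9:108936398-108936632, plus strand: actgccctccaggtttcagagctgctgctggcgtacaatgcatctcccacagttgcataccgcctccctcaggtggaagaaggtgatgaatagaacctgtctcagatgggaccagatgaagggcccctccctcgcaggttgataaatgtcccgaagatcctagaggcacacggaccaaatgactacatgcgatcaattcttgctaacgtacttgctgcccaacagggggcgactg
Cox5b, chr1:36691237-36691448, plus strand: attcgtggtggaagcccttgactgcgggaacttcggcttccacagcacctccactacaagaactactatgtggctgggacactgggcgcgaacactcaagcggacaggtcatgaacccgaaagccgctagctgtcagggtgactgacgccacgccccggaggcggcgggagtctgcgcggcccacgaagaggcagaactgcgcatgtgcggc
Cox6a1, chr5:115348982-115349129, minus strand: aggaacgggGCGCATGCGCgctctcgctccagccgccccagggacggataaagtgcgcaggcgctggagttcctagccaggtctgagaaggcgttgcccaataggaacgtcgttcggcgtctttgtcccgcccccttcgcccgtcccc
Ndufa6, chr15:82354323-82354541, minus strand: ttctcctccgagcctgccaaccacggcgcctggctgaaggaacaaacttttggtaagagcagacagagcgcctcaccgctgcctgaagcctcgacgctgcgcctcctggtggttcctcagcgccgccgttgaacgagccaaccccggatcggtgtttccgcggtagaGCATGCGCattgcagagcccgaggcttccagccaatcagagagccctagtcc

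In the Cox6a1 stretch, matches on the 2 strands began 162 and 160 bases before the start and overlapped, and in Ndufa6 the match began 83 bases before it. RefSeq windows of 300 bases (250 before to 50 after each start) were present for 76 of the 92 members, in 82 windows. GCGCATGC (NRF1) lay in 14.6% of members' windows, against 5.48% of the 10441 windows of genes tested and 2.71% of all 32851 windows. AAGATGGCG (YY1) lay in 11.0%, 3.44% and 1.40% of them, and CCGGAAG (ETS) in 20.7%, 19.3% and 8.86%. The 75 windows of mitochondrial ribosomal protein genes held NRF1 in 10.7%, YY1 in 10.7% and ETS in 34.7%, and the 93 windows of cytosolic ones held them in 5.38%, 6.45% and 29.0%. Whether members differ from these groups in their motifs was not tested. Both strands were searched, the end of the ETS motif is also the start of the YY1 motif so that both can share bases, and a match in such a window is a description of its letters, not a binding site. The Uqcrc1 window also holds an NRF1 match, outside the stretch printed. Cox5b has none of the 3 motifs in its window.

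Of the 92 members, 85 had a mean of at least 1 CPM over the 5 libraries and entered the test. In PBS-treated and Sema3G-treated BMMs alike, RNA of all 5 complexes was present at moderate levels. The median of the tested members' mean levels was 54.2 CPM for complex I, 72.6 CPM for complex II, 70.5 CPM for complex III, 149.8 CPM for complex IV and 82.5 CPM for complex V, against 16.9 CPM for all 10088 genes tested. The highest mean levels were those of Cox6c (264 CPM), Ndufa2 (262 CPM), Atp5g3 (258 CPM), Cox6a1 (242 CPM) and Cox4i1 (240.2 CPM), and the next of the complexes' leading genes were Uqcrh (216 CPM) and Sdhb (178 CPM). The SDs of the first 5 were 24.4 to 87.9 CPM in PBS and 14.3 to 49.9 CPM in Sema3G, so these 5 do not differ in level beyond their spread. All UMIs of members together were 17173 and 14315 in PBS and 13385, 12370 and 11546 in Sema3G. Their share of the UMIs on listed genes other than Rn45s was 1.23% and 1.06% in PBS and 1.14%, 0.935% and 0.918% in Sema3G, and Sema3G 1 overlapped the PBS libraries.

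**Figure D2:**
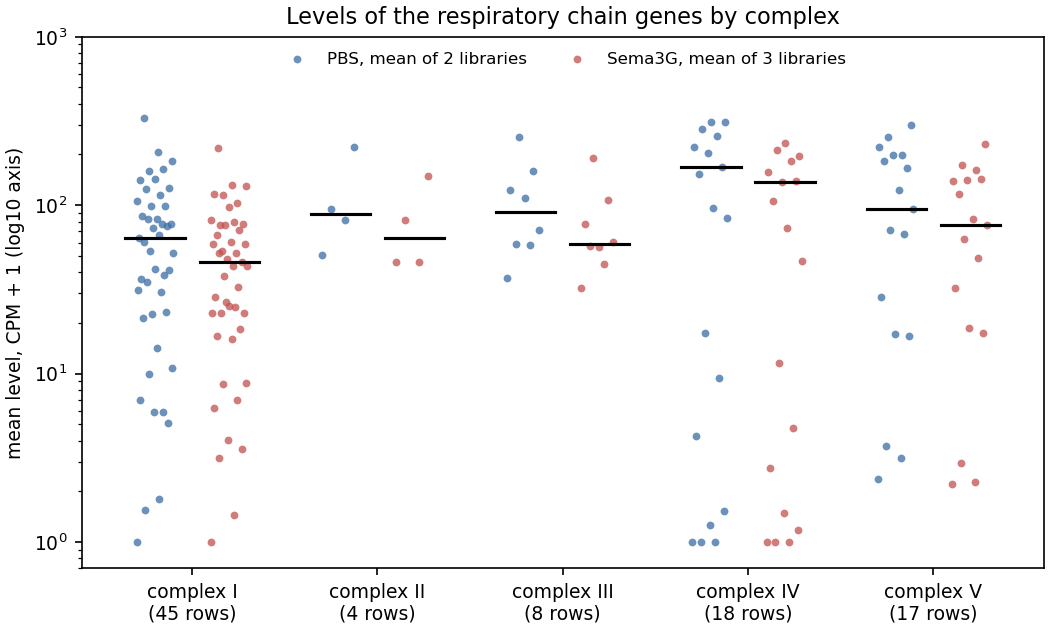
Points give each member's mean CPM + 1 on a log10 axis, by complex, over the 2 PBS libraries (blue) and the 3 Sema3G libraries (red); black lines are the medians of the members tested. Complexes IV and I hold members with no or almost no UMIs at the bottom, and complex IV has the highest median, 149.8 CPM over both groups.

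Of the 7 members below the filter, 5 were tissue-restricted isoforms of complex IV. Cox4i2, the lung isoform of subunit 4, Cox7b2 and Cox8c had no UMI in any library, and Cox6b2 (3 UMIs in all) and Cox8b (4 UMIs in all) were at 0 in 3 and 1 of the libraries. Ndufa4l2, a paralog of Ndufa4 known to be induced by hypoxia, had 3 UMIs in PBS and 3 in Sema3G. Ndufs5, a subunit that complex I of all tissues contains, had no UMI in any library. It was named after its value was seen. The last 300 bases of its transcript share at least 75 bases at 98% identity or more with 1 pseudogene, so its reads may have had more than 1 place to map, and its 0 is not read as absence of the RNA. Such near copies were found for 16 members, whose counts are uncertain for that reason. Among them were Atp5l, named for its 8 pseudogene copies and at a mean of 1.26 CPM, Cox5b, whose copy is in another gene that is not a pseudogene, and Cox6c, Ndufb11, Atp5j, Atp5g1 and Atp5g2. The 16 had a median level of 29.5 CPM and the other 76 had 64.9 CPM.

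With Sema3G, members were lower on the whole than with PBS, and mostly by less than could be called for a single gene. The median log2 fold change (Sema3G over PBS, on log2(CPM + 1)) was -0.45 over the 85 members and -0.22 over all 10088 genes tested, so members lay 0.23 below the median of all genes (-0.23). By complex, the median relative to all genes was -0.24 in complex I, -0.18 in complex II, -0.22 in complex III, -0.30 in complex IV and -0.12 in complex V. When 1 library was left out, these medians stayed negative but changed in size. They ran from -0.39 (without PBS 2) to -0.13 (without Sema3G 3) in complex I, from -0.43 (without PBS 2) to -0.05 (without PBS 1) in complex II, and from -0.38 (without Sema3G 1) to -0.13 (without Sema3G 3) in complex III. In complex IV they ran from -0.44 (without PBS 2) to -0.25 (without Sema3G 2), and in complex V from -0.27 (without PBS 2) to -0.05 (without Sema3G 3). Of the 85, 78 were below 0 (91.8%, against 67.5% of all genes) and 66 were below the median of all genes, where by construction 50.0% of all genes lie. All 3 Sema3G libraries were below both PBS libraries for 34 of the 85 (40.0%), against 26.5% of all genes, and above both for 0 of the 85, against 11.9% of all genes. The unadjusted p was below 0.05 for 37 lower members (43.5%) and 0 higher ones, against 14.2% of all genes lower and 689 of 10088 higher. Members were more abundant than most genes, and both shares depend on level. At a mean of at least 20 CPM, groups without overlap and lower were 47.8% of 67 members against 36.1% of 4592 genes, and the unadjusted p was below 0.05 for 53.7% against 23.0%, lower. In bulk RNA, fewer cells that express a gene and less of its RNA per cell cannot be told apart.

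Uqcrc1 and Cox5b fell past the adjusted p of 0.05, and no other member passed in either direction. In the same limma fit, 22 genes (0.218% of all) were lower and 160 (1.59%) were higher at that limit. With CPM divided by TMM factors, a scaling that centres most genes, the median of all genes moved from -0.22 to -0.04, that of members to -0.25, and Uqcrc1 alone was lower, among 3 lower genes (0.0297% of all) and 325 higher ones. With CPM taken over listed genes other than Rn45s, the medians were 0.04 for all genes and -0.17 for members, 63 of 85 members were below 0 and none passed. Under all 15 alternatives, the members' median stayed below that of all genes, with differences of -0.34 to -0.15. The count of calls rested on single libraries. Without Sema3G 1 there were 24 lower members, against 4.36% of all genes. Without PBS 1 there were 0 lower and 1 higher (Atp5j), among 11 lower and 88 higher genes. Without PBS 2 there were 2 lower (Ndufc2 and Sdhd), among 40 lower and 177 higher genes. Without Sema3G 2 or without Sema3G 3 no member passed, with 0 lower genes and 27 or 32 higher ones.

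**Figure D3:**
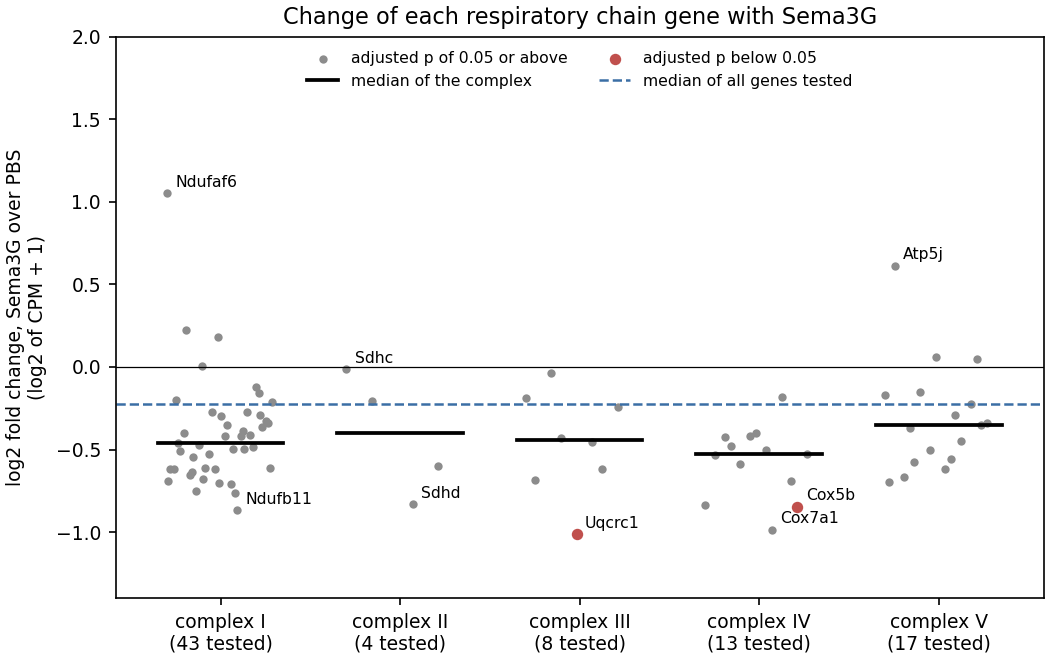
Each point is 1 of the 85 members tested, placed by complex and by its log2 fold change (Sema3G over PBS, log2 of CPM + 1); black bars are the medians of the complexes and the dashed line is the median of all genes tested, -0.22. Uqcrc1 and Cox5b (red) are the 2 members past the adjusted p of 0.05, and the medians of all 5 complexes lie below the dashed line.

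**Figure D4:**
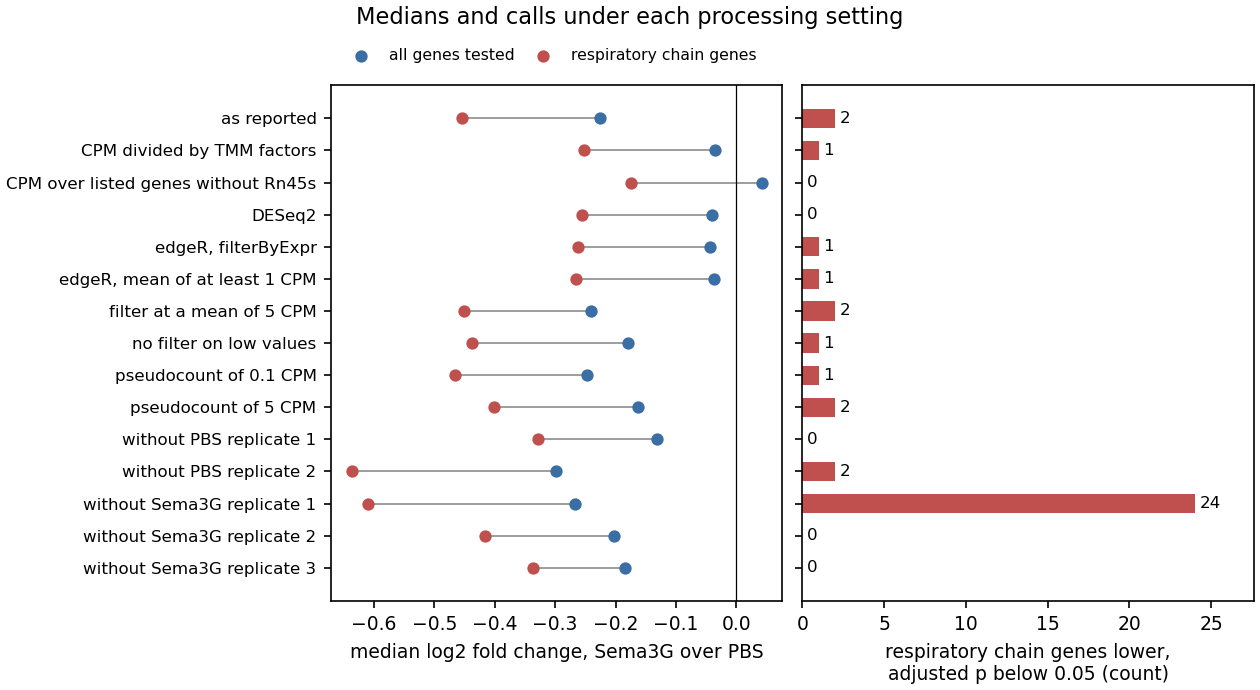
The left panel gives, under each processing setting, the median log2 fold change of all genes tested (blue) and of the respiratory chain genes tested (red), and the right panel the number of respiratory chain genes lower at an adjusted p below 0.05. The red point lies to the left of the blue one in every setting shown, with differences of -0.34 to -0.15, while the count of calls runs from 0 to 24.

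Of the 43 complex I members tested, 39 were below 0, 35 were below the median of all genes, 19 had groups that did not overlap with Sema3G lower (44.2%, against 26.5% of all genes tested and 36.1% of those at 20 CPM or more), and none passed the adjusted p. The 28 accessory subunits tested, which surround the catalytic core, had a median of -0.50, with 26 below the median of all genes and 17 without overlap (60.7%, against the same 26.5% and 36.1%). The 7 core subunits, which carry the flavin and iron-sulfur clusters, had -0.27, with 5 below the median of all genes and 1 without overlap (14.3%, against 26.5%). The 7 assembly factors had -0.20, 3 of them below the median of all genes, at a median level of 5.53 CPM, where 3 UMIs are 1.35 to 1.67 CPM. The difference between these roles was not tested.

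Ndufa2, an accessory subunit and the most abundant member of complex I, was at 346 and 311 CPM in PBS and at 266, 200.8 and 184 CPM in Sema3G. The groups did not overlap and the log2 fold change was -0.61 (SE 0.20, limma adjusted p = 0.111). Ndufb8, a membrane-arm subunit often used as a marker of assembled complex I, was at 213 and 197 CPM in PBS and at 175, 102 and 118 CPM in Sema3G, again without overlap, with a change of -0.68 (SE 0.22, limma adjusted p = 0.109). Ndufv3, a subunit next to the flavin site, was at 197 and 168 CPM in PBS and at 147, 125 and 115 CPM in Sema3G (-0.50, SE 0.19, limma adjusted p = 0.153). In these 3 genes Sema3G 1 lay nearest to the PBS libraries.

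Ndufb11 had the lowest fold change of the complex. This X-linked membrane-arm subunit was at 44.0 and 36.9 CPM in PBS and at 25.6, 23.9 and 16.6 CPM in Sema3G, with a change of -0.87 (SE 0.25, limma adjusted p = 0.088). Ndufa5 was next, at 131 and 119.9 CPM in PBS and 110.1, 62.7 and 57.2 CPM in Sema3G (-0.76, SE 0.24, limma adjusted p = 0.105). At the other end, Ndufs4, an accessory subunit whose loss causes mitochondrial disease, was at 24.2 and 19.3 CPM in PBS and at 27.2, 26.2 and 23.0 CPM in Sema3G, overlapping, with a change of 0.23 (SE 0.25). Ndufaf6, an assembly factor, rested on 2 UMIs in PBS and 13 in Sema3G, and its value of 1.05 (SE 0.58, limma adjusted p = 0.306) rests on too few UMIs to give a direction. Ndufa4, placed by symbol with complex I although its protein is known to sit in complex IV, was at 35.7 and 24.6 CPM in PBS and at 31.1, 16.7 and 17.5 CPM in Sema3G (-0.48, SE 0.29).

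The 4 genes of complex II encode the flavoprotein Sdha, the iron-sulfur protein Sdhb and the membrane anchors Sdhc and Sdhd, and none passed the adjusted p. Differences between the 4 genes were not tested. Sdhd was at 92.9 and 69.6 CPM in PBS and at 49.5, 43.8 and 41.5 CPM in Sema3G. Its groups were well apart, and the change was -0.83 (SE 0.21, limma adjusted p = 0.051, and 0.029 to 0.277 when 1 library was left out). Sdhb was at 259 and 185 CPM in PBS and at 198, 132 and 114 CPM in Sema3G, and Sema3G 1 lay above PBS 2 (-0.60, SE 0.23). Sdha was at 107 and 80.3 CPM in PBS and at 93.4, 78.1 and 70.5 CPM in Sema3G, with a change of -0.21 (SE 0.20), at the median of all genes, that turned to 0.08 with CPM over listed genes other than Rn45s.

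Sdhc was at 69.2 and 29.4 CPM in PBS and at 47.3, 40.6 and 47.0 CPM in Sema3G. The PBS libraries differed 2.35-fold (exact 95% interval 1.70 to 3.29, for counting error only) and the Sema3G libraries lay between them, so its change of -0.01 (SE 0.28) depends on which PBS library is used: it was 0.59 without PBS 1 and -0.61 without PBS 2. With CPM over listed genes other than Rn45s it was 0.28. Over the 4 genes, the median relative to all genes was -0.05 without PBS 1 and -0.43 without PBS 2.

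**Figure D5:**
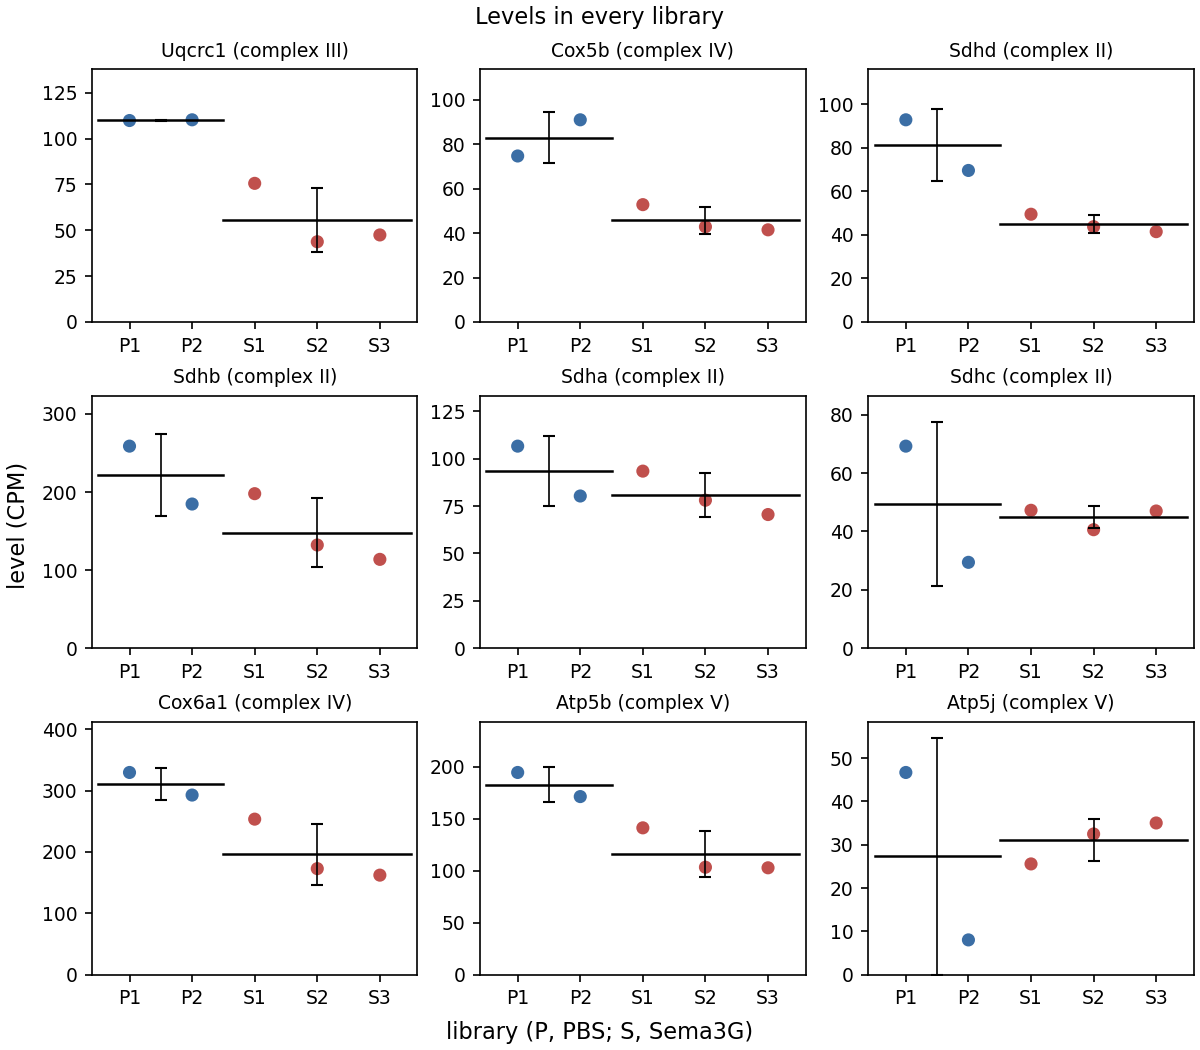
Levels in CPM of 9 members in each library, with PBS 1 and 2 in blue and Sema3G 1 to 3 in red; horizontal lines are group means and bars are ± 1 SD (n = 2 and n = 3), each axis starting at 0. Uqcrc1, Cox5b, Sdhd, Cox6a1 and Atp5b show no overlap, while the PBS libraries of Sdhc and Atp5j lie on either side of all 3 Sema3G libraries; the lower SD bar of Atp5j reaches almost to 0.

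All 8 genes of complex III were below 0 and 6 were below the median of all genes. Uqcrc1, core protein 1, which faces the matrix and resembles a mitochondrial processing peptidase (chromosome 9, 108936633 to 108949623, plus strand, GRCm38), was at 109.9 and 110.3 CPM in PBS and at 75.6, 43.8 and 47.5 CPM in Sema3G. All Sema3G libraries were below both PBS libraries, and the means were 110.1 ± 0.28 CPM (SD, n = 2) and 55.6 ± 17.4 CPM (SD, n = 3). It fell by 1.01 on the log2 scale (SE 0.23, limma adjusted p = 0.029), and lay 0.79 below the median of all genes (-0.79). The adjusted p was 0.045 with TMM scaling, 0.049 in edgeR's quasi-likelihood test and 0.074 in DESeq2. It ran from 0.0066 to 0.216 when 1 library was left out and was below 0.05 only without Sema3G 1. The log2 change stayed between -1.25 and -0.87 in those fits.

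Uqcrc2, the partner of Uqcrc1 in the core, was at 65.9 and 50.3 CPM in PBS and at 62.3, 58.7 and 48.4 CPM in Sema3G, with overlapping groups and a change of -0.04 (SE 0.21) that became 0.17 with TMM scaling. Uqcrfs1, the Rieske iron-sulfur protein at the catalytic centre, was at 41.2 and 30.5 CPM in PBS and at 38.9, 27.5 and 27.7 CPM in Sema3G (-0.19, SE 0.25; 0.01 with TMM scaling). The difference between Uqcrc1 and these 2 genes was not tested. The 5 small accessory subunits were all below the median of all genes. Uqcrh, the hinge protein near cytochrome c, was at 264 and 246 CPM in PBS and at 214, 185 and 169.6 CPM in Sema3G (-0.43, SE 0.18, limma adjusted p = 0.196). Uqcr10 was at 130.2 and 112 CPM in PBS and at 101, 66.3 and 62.7 CPM in Sema3G (-0.69, SE 0.22, limma adjusted p = 0.107). Uqcrq was at 176 and 143 CPM in PBS and at 148, 88.9 and 83.4 CPM in Sema3G, where Sema3G 1 lay above PBS 2 (-0.61, SE 0.23).

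All 13 complex IV genes tested were below 0, 12 of them below the median of all genes, and 5 had groups without overlap (38.5%, against 26.5% of all genes and 36.1% of those at 20 CPM or more, a share near that of the complex). The catalytic subunits of this complex are mitochondrially encoded and are not analysed here, so every member is a nuclear-encoded subunit around that core. Cox5b, a zinc-binding subunit on the matrix side (chromosome 1, 36691449 to 36693681, plus strand, GRCm38), was at 74.7 and 91.0 CPM in PBS and at 52.8, 42.9 and 41.5 CPM in Sema3G. The groups did not overlap, with means of 82.9 ± 11.5 CPM (SD, n = 2) and 45.7 ± 6.18 CPM (SD, n = 3). It fell by 0.85 on the log2 scale (SE 0.21, limma adjusted p = 0.047), 0.62 below the median of all genes (-0.62). This call was lost with TMM scaling (adjusted p = 0.103), in edgeR (0.088) and in DESeq2 (0.222), and the value ran from 0.021 to 0.280 when 1 library was left out, below 0.05 only without Sema3G 1. The near copy of its 3′ end in another gene makes its count uncertain.

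Cox6c, a small subunit and the most abundant member of all, was at 364 and 259 CPM in PBS and at 287, 205 and 205 CPM in Sema3G (-0.42, SE 0.21, limma adjusted p = 0.258), and Sema3G 1 lay above PBS 2. Cox4i1, the ubiquitous form of the largest nuclear-encoded subunit, was at 329.7 and 237 CPM in PBS and at 264, 189 and 182 CPM in Sema3G, with the same overlap (-0.42, SE 0.21). Cox6b1, which joins the monomers of the dimer, was at 305 and 209 CPM in PBS and at 225, 154 and 163 CPM in Sema3G (-0.50, SE 0.21). For these 3 genes PBS 1 exceeded PBS 2 by 1.39 to 1.46 times. Their changes were -0.17, -0.19 and -0.23 without PBS 1, and -0.67, -0.66 and -0.77 without PBS 2. Cox8a was at 231 and 105 CPM in PBS and at 147, 132 and 133 CPM in Sema3G. Its PBS libraries differed 2.20-fold, and its change of -0.18 (SE 0.25) was 0.03 with TMM scaling and 0.39 without PBS 1.

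Where complex IV has paralogs, the ubiquitous form was the more abundant one. Cox6a1, whose upstream stretch holds the overlapping NRF1 matches, was at 329.7 and 293 CPM in PBS and at 254, 173 and 162 CPM in Sema3G, without overlap (-0.69, SE 0.21, limma adjusted p = 0.092). Cox6a2, its heart and muscle form, was at 3.30 and 3.21 CPM in PBS and at 3.89, 0.903 and 0.461 CPM in Sema3G, which is 12 and 10 UMIs, and carries no direction at that depth (-0.83, SE 0.56). Cox7a2 was at 233 and 211 CPM in PBS and at 191, 139.9 and 136 CPM in Sema3G (-0.52, SE 0.20, limma adjusted p = 0.148). Cox7a1, the muscle form, was at 9.89 and 6.96 CPM in PBS and at 4.45, 2.71 and 4.15 CPM in Sema3G. It had the lowest value of the complex (-0.99, SE 0.41), with groups that did not overlap, but on 31 and 23 UMIs and with an adjusted p of 0.185 in limma. Cox7a2l, of the same paralog set, was at 127 and 178 CPM in PBS and at 129, 96.6 and 88.5 CPM in Sema3G (-0.54, SE 0.21, limma adjusted p = 0.168). Here PBS 2 was the higher PBS library. Cox7b was at 112 and 79.8 CPM in PBS and at 80.6, 73.6 and 61.3 CPM in Sema3G (-0.40, SE 0.21).

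Of the 17 complex V genes, 14 were below 0, 11 were below the median of all genes, 6 had no overlap (35.3%, against 26.5% of all genes and 36.1% of those at 20 CPM or more) and none passed the adjusted p. The 5 genes of the F1 head, which makes ATP, had a median of -0.45, the 7 of the stalks and membrane part -0.34 and the 3 of the rotating c ring -0.35, and the rows Atp5s and Atp5sl are placed here by symbol although their proteins lie outside the enzyme. Atp5b, the catalytic beta subunit, was at 194 and 171 CPM in PBS and at 141, 103 and 103 CPM in Sema3G, without overlap (-0.67, SE 0.20, limma adjusted p = 0.088). Atp5e, the small epsilon subunit, was at 194 and 199.1 CPM in PBS and at 193, 148 and 144 CPM in Sema3G (-0.29, SE 0.19). Sema3G 1 was level with PBS 1 there.

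In the membrane part, Atp5k, a subunit of the dimer interface, was at 247 and 193 CPM in PBS and at 188, 118 and 109 CPM in Sema3G. It had the lowest change of the complex (-0.70, SE 0.22, limma adjusted p = 0.111). Atp5j2 was at 259.9 and 244 CPM in PBS and at 215, 151 and 148 CPM in Sema3G (-0.57, SE 0.20, limma adjusted p = 0.130). Subunit c, the ring that turns with the proton flow, is encoded by 3 genes for 1 mature protein. Atp5g3 was the main one, at 362 and 237 CPM in PBS and at 246, 219.8 and 224 CPM in Sema3G (-0.35, SE 0.20). The change of Atp5g3 was -0.05 without PBS 1 and -0.65 without PBS 2. Atp5g1 was at 17.0 and 15.5 CPM in PBS and at 23.9, 15.8 and 12.9 CPM in Sema3G (0.06, SE 0.30), and Atp5g2 at 0.922 to 3.21 CPM in all libraries (-0.37, SE 0.51). None of the 3 passed the adjusted p.

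Atp5j, coupling factor 6 of the peripheral stalk, was far apart between the PBS libraries, at 46.7 and 8.03 CPM, with Sema3G at 25.6, 32.5 and 35.0 CPM. Its 85 and 15 UMIs in PBS gave a ratio of 5.82 (exact 95% interval 3.34 to 10.8, for counting error only), beyond counting error within 1 group. Its change of 0.61 (SE 0.44, limma adjusted p = 0.423) was -0.59 without PBS 2 and 1.82 without PBS 1. It overlaps Gabpa on the opposite strand and has 1 pseudogene near copy. Whether counting used strand was not given in the sources used here, so its reads and those of Gabpa may not have been told apart.

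The tested members with a mean of at least 20 CPM, where counting error is smaller, numbered 67. Their median was -0.48, and 56 were below the median of all genes, while all 4592 genes at that level had a median of -0.26 and 54.1% of them were below -0.22, the median of all 10088 genes. Of the 18 members from 1 to 20 CPM, 10 were below -0.22, with a median of -0.35. Members without a near copy had a median of -0.50 and members with one had -0.34. The position below other genes was also that of ribosomal protein genes. The 84 cytosolic ones tested had a median of -0.50, 0.28 below that of all genes (-0.28), with 67 below the median of all genes and 40 without overlap (47.6%, against 26.5% of all genes and 36.1% of those at 20 CPM or more), while 3 were above both PBS libraries. The 74 mitochondrial ones had -0.39, with 57 below, 31 without overlap (41.9%) and 1 above both PBS libraries. In limma 0 of either group passed the adjusted p. The unadjusted p was below 0.05 for 37 lower cytosolic ones (44.0%) with 2 higher, and for 20 lower mitochondrial ones (27.0%) with 1 higher, against 14.2% of all genes lower. Whether members differ from these groups was not tested.

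Other genes of the pathway were taken from lists of assembly factors, electron carriers, the tricarboxylic acid cycle, carriers and regulators, and none of their genes passed the adjusted p in either direction in limma. At an unadjusted p below 0.05, where 14.2% of all genes were lower, the complex IV assembly factors had 3 of 23 lower, the tricarboxylic acid cycle 4 of 18, the electron carriers 4 of 17, the membrane carriers 2 of 7, the factors outside the member rule for complexes I, II, III and V 1 of 8, 1 of 3, 2 of 5 and 3 of 5, and the regulators 1 of 12 with 1 higher. The tricarboxylic acid cycle had a median of -0.40, the complex IV assembly factors -0.36 and the electron carriers -0.24. Cycs, cytochrome c, which carries electrons from complex III to complex IV, had 24 and 30 UMIs in PBS and 11, 14 and 3 in Sema3G. That is 13.2 and 16.1 CPM against 6.12, 6.32 and 1.38 CPM, with a change of -1.64 (SE 0.46, limma adjusted p = 0.076). Near copies of 3′ ends were searched for members only, so Cycs was not examined for them. Atpif1, the inhibitor of reverse ATP synthase activity, was at 288 and 259 CPM in PBS and at 216, 171 and 147 CPM in Sema3G (-0.63, SE 0.20, limma adjusted p = 0.101). Slc25a5, an ADP/ATP carrier, and Ucp2, an uncoupling protein of macrophages, had changes of -0.32 (SE 0.23) and -0.28 (SE 0.19).

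The 12 regulators tested had a median of 0.15, which is 0.37 above that of all genes, and 2 of 12 were below it. Nrf1 itself was at 19.2 and 20.3 CPM in PBS and at 15.0, 16.2 and 17.1 CPM in Sema3G (-0.28, SE 0.27). Gabpa, which pairs with Gabpb1 to form GABP, had 0.53 (SE 0.36), Tfam, which packs and transcribes mitochondrial DNA, had 0.35 (SE 0.33) and Ppargc1b, a coactivator of mitochondrial genes, had 0.25 (SE 0.32). Yy1, named after its values were seen, was at 50.0 and 36.9 CPM in PBS and at 62.8, 73.1 and 97.7 CPM in Sema3G, all above PBS. Its change was 0.82 (SE 0.23) with an adjusted p of 0.074 in limma, 0.021 with TMM scaling and 0.024 in edgeR. Both of these alternatives call many genes higher. Of the 10088 genes tested, 325 were called higher and 3 lower with TMM scaling. In edgeR at a mean of 1 CPM, 301 were called higher and 3 lower. Because Yy1 was picked for its values, these p-values do not establish a rise of this gene.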

How the data were processed

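RNA of 5 samples of LPS-activated BMMs was measured, 2 with PBS and 3 with Sema3G. Per the paper's methods, the authors prepared 3′-end libraries with UMIs, sequenced 75-base single reads, mapped them to mm10, counted UMIs in Strand NGS and normalized with EdgeR (3.12 in the submitters' processing notes). Neither the gene annotation nor the use of strand was given in the sources used here. The deposited values are CPM over library totals that include UMIs outside the listed genes. All values (100%) were within 0.01 of whole UMI counts, which gave the counts and totals used here. The deposited p-value, q-value and ranking columns hold the authors' own comparison and were not used. Dates stood in place of symbols in 27 rows, of which 15 were tested.

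A trended limma fit (version 3.58.1, R 4.3.3) was made on log2(CPM + 1) for the 10088 rows with a mean of at least 1 CPM, two-sided, with Benjamini-Hochberg adjusted p-values over all of them. edgeR 4.0.16 and DESeq2 1.42.0 on recovered counts, other scalings, filters and pseudocounts, a replicate block and leaving out each library were the alternatives. On data simulated from these libraries with a fixed spread, limma, edgeR and DESeq2 recovered changes planted in genes with a mean of at least 30 counts. The planted changes were larger than that of any member, so recovery of changes of the members' size was not tested. Sema3G 2 and 3 were the most similar libraries, and their chi-square divided by its degrees of freedom was 1.77 (6.57 to 29.6 for the other 9 pairs). That is beyond sampling noise, but it cannot show whether they came from separate cultures. They were counted separately, as the labels list them.

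The members and lists were chosen with earlier results of these data known. Named are, in each complex, the 3 most abundant members, the 2 highest and 2 lowest changes, members past the adjusted p of 0.05, paralog sets, the Sdh genes and a few genes of the pathway. Gene positions are from GENCODE vM21 and promoter windows from RefSeq, both on GRCm38.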

Additional observations from a re-analysis of the deposited data

How the results depend on the processing

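No alternative moved the members' median above that of all genes. Members lower and higher at the adjusted p, then all genes lower and higher, were 2, 0, 22 and 160 as reported, 1, 0, 3 and 325 with TMM factors, 0, 0, 2 and 496 with CPM over listed genes other than Rn45s, 0, 0, 1 and 234 in DESeq2, 1, 0, 4 and 330 in edgeR with filterByExpr, 1, 0, 3 and 301 in edgeR at a mean of 1 CPM, 1, 0, 4 and 104 without a filter, and 1, 0, 5 and 120 with a pseudocount of 0.1 CPM. Leaving out each library gave 0 (PBS 1, Sema3G 2 or Sema3G 3) to 24 (Sema3G 1) members lower, 0 to 1 (PBS 1) higher, 0 to 440 genes lower and 27 to 270 higher. The lone PBS library is then assumed to vary like Sema3G. The median relative to all genes ran, over the libraries left out, from -0.43 to -0.049 in complex II, -0.38 to -0.13 in complex III, -0.44 to -0.25 in complex IV and -0.27 to -0.045 in complex V. The cause of these shifts was not tested.

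The replicate block, on PBS 1, PBS 2, Sema3G 1 and Sema3G 2, gave 12 members lower and 0 higher, and 281 genes lower and 278 higher. These numbers pair no samples by the labels, and the correlations of deviations of same-numbered samples, 0.17 and 0.11, rest on only 2 pairs.

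Signs turned for some named genes. With TMM factors, CPM over listed genes other than Rn45s, DESeq2, edgeR with filterByExpr and edgeR at a mean of 1 CPM, Sdhc had 0.19, 0.28, 0.11, 0.098 and 0.097, Uqcrc2 0.17, 0.25, 0.17, 0.17 and 0.17 (0.068 with the replicate block), and Uqcrfs1 0.010, 0.093, 0.017, 0.0091 and 0.0084. Cox8a had 0.025 with TMM factors and 0.11 over listed genes, and Sdha 0.083 over listed genes and 0.0028 in DESeq2. Over the libraries left out, Atp5g1 ran from -0.18 to 0.24, Atp5j from -0.59 to 1.82, Cox8a from -0.75 to 0.39, Sdhc from -0.61 to 0.59, Uqcrc2 from -0.23 to 0.15 and Uqcrfs1 from -0.40 to 0.020. Of the other members, Cox7c (-0.48), Ndufa1 (-0.42) and Ndufb5 (-0.33) also turned without PBS 1, to 0.16, 0.07 and 0.09. So did Atp5f1 (-0.15), Ndufa10 (-0.12), Atp5l (-0.17), Ndufs1 (-0.27) and Ndufab1 (-0.39), to 0.096, 0.085, 0.0062, 0.0052 and 0.0028. Ndufs3 (0.0065) and Atp5sl (0.050) turned the other way, to -0.28 and -0.12. Without PBS 1, 68 of the 85 members were below 0, against 78 as reported.

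With 2 PBS libraries and 1283029 to 1487137 UMIs on listed genes in each library, members under 20 CPM rest on few UMIs per library, and single libraries decide which members are called.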
